A study of Homo sapiens with 8 samples.

Results

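The 10 genes described here encode secreted or membrane-bound signals of acute inflammation: the chemokines CXCL1, CXCL2, CXCL3, CXCL8, CCL3, CCL4 and CCL5, and the cytokines IL1B, LTB and TNF. They were taken by name, as every probe set whose platform annotation listed one of them, which gave 21 of the 49395 probe sets of the Affymetrix PrimeView array. Of these, 17 named a single gene. The remaining 4 named several, 3 of them CCL4 together with its copies CCL4L1 and CCL4L2 and 1 of them CXCL1 together with CXCL2. A gene was represented by its brightest probe set of its own, so 9 of the 10 had a value and CCL4 is described through the shared probe sets only. Of the 9, 8 reached a log2 intensity of 6 on at least 1 array and were among the 11529 genes compared. TNF did not, and CXCL3 did so only on the array of wild-type cells given TNF-alpha.

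RNA came from KBM7 cells, a near-haploid chronic myeloid leukaemia line in which a single gene-trap insertion can disable a gene. Wild-type (WT) cells were compared with a JAK2 mutant line in an IFN-gamma experiment (100 ng/ml) and with a TNFRSF1A mutant line in a TNF-alpha experiment (10 ng/ml), in each case unstimulated and after 6 hours. Unstimulated WT had 2 arrays: replicate 1 belongs to the former experiment and replicate 2 to the latter. A single array measured each of the other 6 conditions. The labels describe both mutants as lacking expression of the targeted gene; each is represented by 1 line, so an effect of the insertion and a difference between lines cannot be told apart. The comparisons between single arrays below carry no p-value. A gene is said to have risen or fallen at a 2-fold difference, a log2 difference of 1, and precision is limited by how few arrays there are. The SD over genes of the difference between the 2 WT arrays, 0.38, serves as the spread. Background is the upper quartile of the 23 background probe sets of an array, a log2 value of 5.76 to 6.04 over the 8 arrays, and a value at or under it is said to lie in the background range.

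The median intensity of the arrays ran from 63.9 to 66.9. The brightest TNFRSF1A probe set stood at log2 values of 6.56 and 6.55 in the TNFRSF1A mutant and between 9.23 and 9.83 elsewhere. The 3 JAK2 probe sets lay in the background range on both JAK2 mutant arrays. On the 2 unstimulated WT arrays they read only 5.97 to 6.49, against background limits of 5.97 and 6.02. Of 7 myeloid progenitor markers, 6 were measured. KIT and CD34 were above background on every array, MPO on 7 and PRTN3 on 2, and AZU1 and ELANE lay in the background range throughout. Of 8 neutrophil markers, 7, all but CSF3R, were in the background range on every array. The monocyte markers CD14 and FCN1 were in it too, while LYZ stood at 8.59 or higher. The lymphoid genes CD3D and PAX5 were above background on every array, at 8.71 or higher and 9.25 or higher, and 4 of 5 T cell markers, CD3E, CD3G, CD2 and CD5, were in the background range on all of them.

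CXCL1, CXCL2, CXCL3 and CXCL8 are chemokines that attract neutrophils through the receptors CXCR1 and CXCR2. CCL3, CCL4 and CCL5 attract monocytes and T cells. IL1B is the secreted pyrogen that is cleaved by caspase-1, LTB is the membrane anchor of the lymphotoxin heterotrimer that signals through LTBR, and TNF is the ligand of TNFR1, the product of TNFRSF1A. Many of these genes are textbook targets of the transcription factor NF-kappaB, which TNFR1 activates. JAK2 is a kinase of the IFN-gamma receptor and of several cytokine receptors.

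Promoter stretches of 5 members are printed because the CXCL genes share one NF-kappaB-type sequence while only some of them moved with TNF-alpha. Each stretch runs from base -130 to base -1 relative to the RefSeq transcript start (assembly GRCh38.p14), 5′ to 3′ on the strand of the gene. They lie at chr4:73869263-73869392 (plus strand) for CXCL1, chr4:74099196-74099325 (minus) for CXCL2, chr4:74038690-74038819 (minus) for CXCL3, chr4:73740439-73740568 (plus) for CXCL8 and chr6:31582426-31582555 (minus) for LTB. Capitals mark the match to GGAATTTCC in the CXCL genes and, in LTB, the NF-kappaB sequence of the immunoglobulin kappa enhancer, which reads from the opposite strand.
CXCL1: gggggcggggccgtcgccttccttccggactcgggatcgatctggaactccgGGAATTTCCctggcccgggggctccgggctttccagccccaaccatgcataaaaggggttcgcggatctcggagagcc
CXCL2: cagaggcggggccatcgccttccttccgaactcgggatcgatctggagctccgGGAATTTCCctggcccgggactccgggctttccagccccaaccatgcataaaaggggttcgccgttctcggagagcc
CXCL3: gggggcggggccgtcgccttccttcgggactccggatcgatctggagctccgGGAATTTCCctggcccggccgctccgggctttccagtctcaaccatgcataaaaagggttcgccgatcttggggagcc
CXCL8: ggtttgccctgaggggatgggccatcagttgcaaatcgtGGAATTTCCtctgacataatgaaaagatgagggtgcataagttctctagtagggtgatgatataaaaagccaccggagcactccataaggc
LTB: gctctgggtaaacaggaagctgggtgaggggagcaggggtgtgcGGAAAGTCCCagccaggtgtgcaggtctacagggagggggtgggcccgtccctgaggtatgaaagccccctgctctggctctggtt
RefSeq promoter windows, from 250 bases before the start to 50 after it, were found for 8 of the 10 members, all but CCL4 and CCL5. The motifs were chosen after the sequences had been read and were searched on both strands. GGAATTTCC was present in 4 of the 8 windows, those of CXCL1, CXCL2, CXCL3 and CXCL8, and in 0.461% of all 35116 windows of that length. It began at base -78 in CXCL1 and CXCL3, at -77 in CXCL2 and at -91 in CXCL8. The kappa enhancer sequence was present in LTB alone of the 8 windows, from base -86, and in 0.191% of all windows. TTCNNNGAA, the frame of STAT sites, was present in IL1B and LTB and in 7.66% of all windows. TATAAA was present in CXCL8, CCL3 and TNF and in 11.5% of all windows, and TGACTCA, the sequence of AP-1 sites, in CXCL8 and in 4.95% of all windows. No match to one motif overlapped a match to another. In pairwise alignments of the printed stretches, CXCL1 was 92.4% identical to CXCL2 and 91.5% identical to CXCL3, and CXCL2 was 87.8% identical to CXCL3, whereas CXCL8 was 40.3% to 45.1% identical to them. A match describes the letters only and shows no binding.

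In WT cells, TNF-alpha raised CXCL2, CXCL3, IL1B and LTB, by 5.05-fold, at least 2.93-fold, at least 2.63-fold and 3.68-fold against WT replicate 2. These are 4 of the 8 members compared, where 0.312% of all compared genes rose; the members were listed with this response known, so nothing is read from the share. The median log2 difference of the 9 members with a value, TNF in the background range included, was 0.96, against 0.01 for all compared genes. For the same reason nothing is read from this median. CXCL8, CCL5 and CCL3 had values of 0.87, 0.96 and 0.72, and CXCL1 had -0.13.

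CXCL2 had log2 values of 6.27 and 6.91 in WT and 6.12 and 6.14 in the JAK2 mutant, each without and then with IFN-gamma, and of 6.38 and 8.71 in WT and 6.58 and 6.62 in the TNFRSF1A mutant, each without and then with TNF-alpha. The TNF-alpha array of WT cells was the single high one, 1.80 above the next. Its difference was 2.34 against WT replicate 2 and 2.44 against replicate 1, and the other probe set of CXCL2 gave 3.07 and 2.79. A probe set shared by CXCL1 and CXCL2 lay in the background range on every array, with values of 4.83 to 5.28.

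CXCL3, the close paralogue of CXCL2, lay in the background range on 7 of the 8 arrays, at 5.01, 5.13, 4.91, 4.78, 5.06, 5.52 and 5.31 in the same order without the TNF-alpha array of WT cells, which stood at 7.57. Only this array was above background. The difference of 2.51 is therefore known to be at least 1.55. The other probe set reached 6.82 on that array and gave a rise of 1.83, or at least 0.80 by the bound.

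CXCL1 showed no such difference. Its brighter probe set ran from 6.81 to 7.01 over the 8 arrays, a range smaller than the spread, and it was lowest in WT with TNF-alpha. The other lay between 3.51 and 3.76, in the background range throughout. The 2 probe sets thus disagreed on whether CXCL1 was above background, and neither followed the cytokines or the genotypes.

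CXCL8, which encodes interleukin-8, stood well above background everywhere and changed less with TNF-alpha. Its brightest probe set had log2 values of 11.72 and 11.72 in WT and 9.87 and 10.06 in the JAK2 mutant, each without and then with IFN-gamma, and of 11.69 and 12.56 in WT and 12.17 and 12.31 in the TNFRSF1A mutant, each without and then with TNF-alpha. The array with TNF-alpha in WT was highest, but only 0.25 above the next, and the 2 JAK2 mutant arrays were the lowest. The TNF-alpha difference in WT was 0.87 by this probe set, under 2-fold, while the other 2 gave 2.14-fold and 2.09-fold, just past it. Against WT replicate 1 the 3 log2 differences were 0.84, 1.29 and 1.17.

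**Figure D1:**
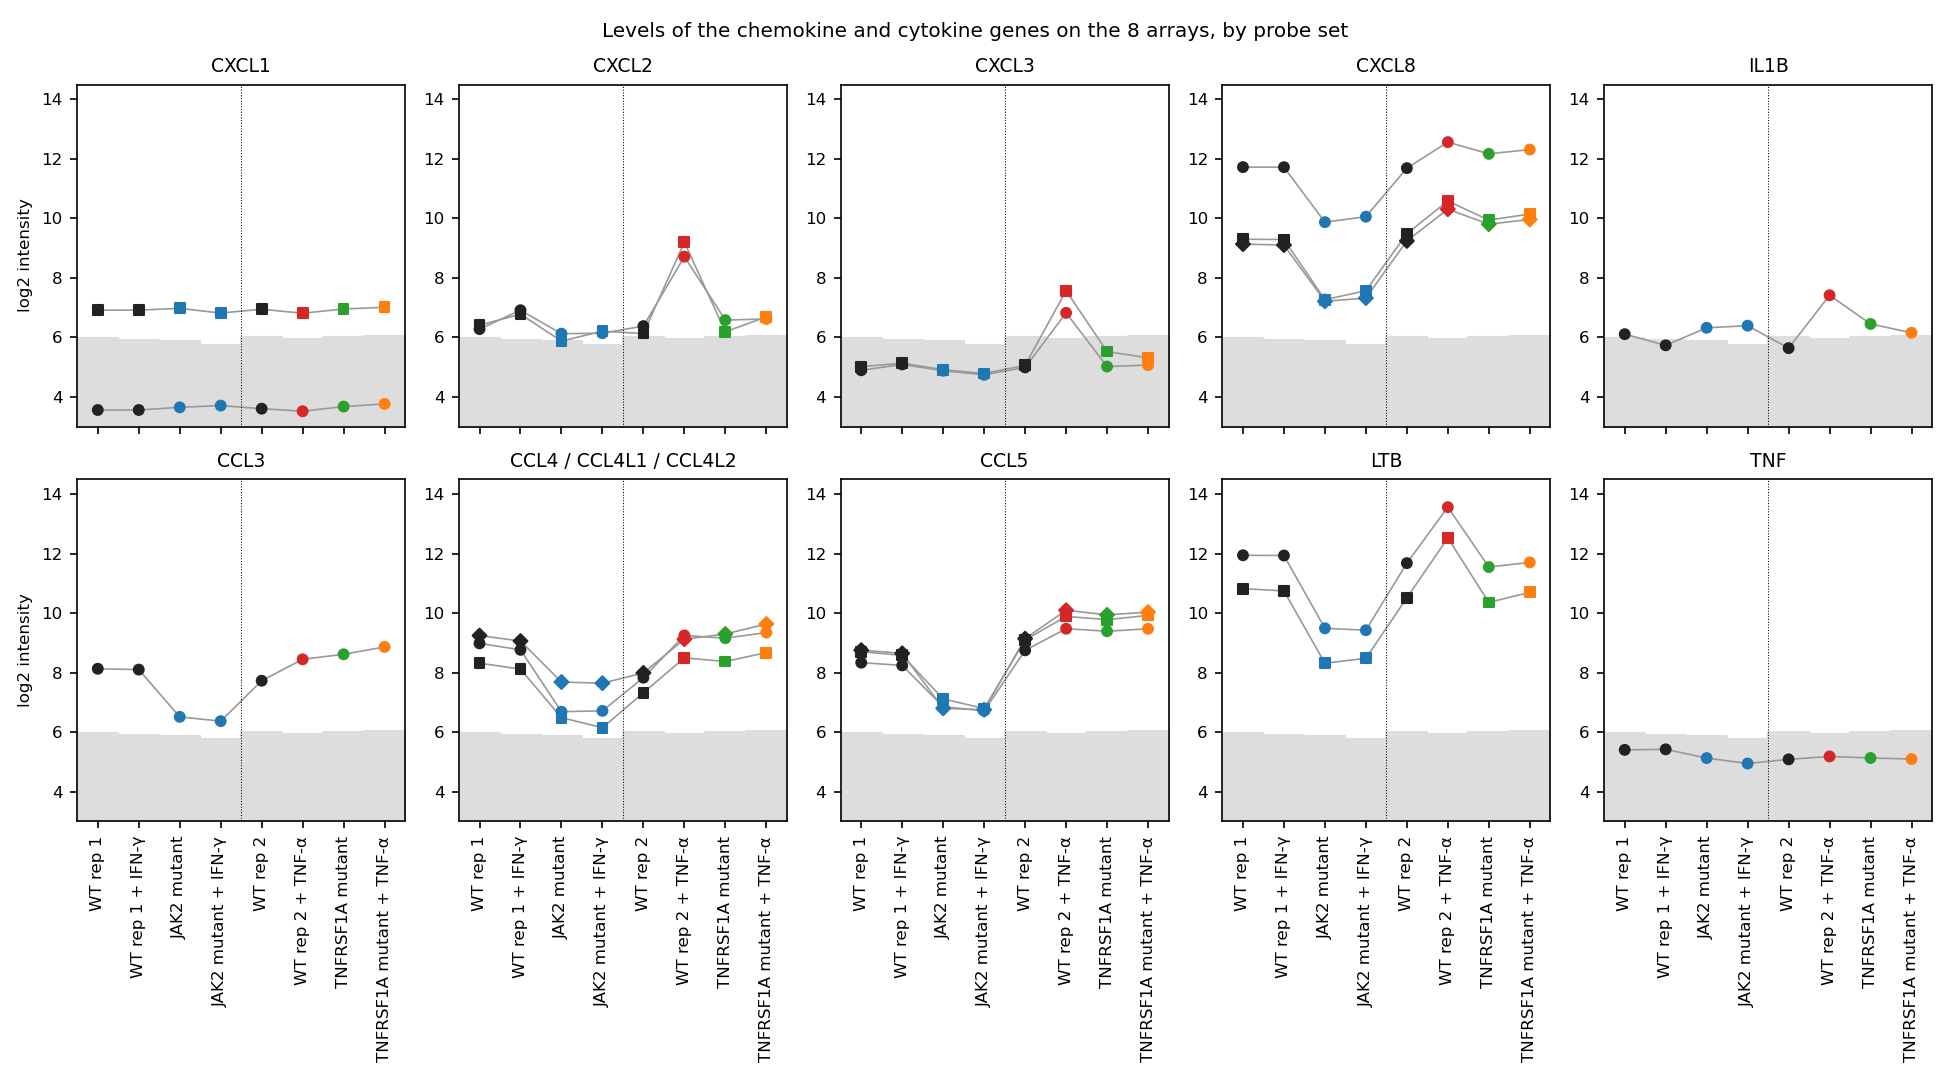
Log2 intensity (y axis) of every probe set of the members on the 8 arrays (x axis), with a line and a marker shape for each probe set and grey for the background range of each array; the probe set shared by CXCL1 and CXCL2 is left out. Marker colours are black for WT without TNF-alpha, red for WT with it, blue for the JAK2 mutant, green for the unstimulated TNFRSF1A mutant and orange for that mutant with TNF-alpha. CXCL2 and CXCL3 peak on the red array at 8.71 and 7.57 by the probe set that stands for each gene, and LTB, CXCL8, CCL3, CCL4 and CCL5 are lowest on the blue arrays.

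LTB had log2 values of 11.94 and 11.94 in WT and 9.49 and 9.42 in the JAK2 mutant, each without and then with IFN-gamma, and of 11.68 and 13.56 in WT and 11.55 and 11.71 in the TNFRSF1A mutant, each without and then with TNF-alpha. It combined a single high array with 2 low ones, and the other 5 lay within 0.40 of each other. TNF-alpha raised it by 1.88 in WT, and by 1.62 against WT replicate 1. The other probe set gave 2.01 and 1.70.

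IL1B stood near background except in WT with TNF-alpha. Its only probe set had log2 values of 6.11 and 5.73 in WT and 6.32 and 6.39 in the JAK2 mutant, each without and then with IFN-gamma, and of 5.64 and 7.41 in WT and 6.45 and 6.15 in the TNFRSF1A mutant, each without and then with TNF-alpha. WT replicate 2 and WT with IFN-gamma lay in the background range, so the rise of 1.78 is known to be at least 1.40; against replicate 1, which was above background, it was 1.31. Among the members, CXCL2, CXCL3 and LTB stood 2-fold above all 7 other arrays on the TNF-alpha array of WT cells, as did 0.139% of all compared genes, and IL1B missed this with 0.96. CXCL3 was compared only through that array, and the members were listed with this response known, so nothing is read from the share. TNF itself lay in the background range on every array, at 4.94 to 5.42.

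The CC chemokines depended on which WT array served as control. CCL5 had log2 values of 8.75 and 8.65 in WT and 6.80 and 6.75 in the JAK2 mutant, each without and then with IFN-gamma, and of 9.14 and 10.10 in WT and 9.94 and 10.03 in the TNFRSF1A mutant, each without and then with TNF-alpha. The TNF-alpha array of WT cells and both TNFRSF1A mutant arrays lay together at the top, within 0.16 of each other. CCL5 had a TNF-alpha difference of 0.96 against WT replicate 2 and of 1.34, past 2-fold, against replicate 1. The other probe sets gave 0.73 and 0.79, then 1.14 and 1.19. Against replicate 1 thus 5 of the 8 compared members rose, CCL5 being the added one, and 1.4% of all compared genes.

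The 3 probe sets shared by CCL4, CCL4L1 and CCL4L2 went the other way. The first of them had log2 values of 8.98 and 8.77 in WT and 6.69 and 6.71 in the JAK2 mutant, each without and then with IFN-gamma, and of 7.83 and 9.25 in WT and 9.16 and 9.35 in the TNFRSF1A mutant, each without and then with TNF-alpha. WT replicate 2 was the only array of the TNF-alpha experiment below 9. All 3 rose with TNF-alpha against WT replicate 2, by 1.42, 1.18 and 1.13, but had 0.27, 0.18 and -0.12 against replicate 1. WT replicate 2 differed from replicate 1 by -1.15, -0.997 and -1.26 in these probe sets, over 2-fold in the first and the third, while 1.99% of all compared genes differed 2-fold between these 2 arrays and none of the 8 compared members did.

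CCL3 followed CCL4 in this. CCL3 had log2 values of 8.13 and 8.10 in WT and 6.51 and 6.37 in the JAK2 mutant, each without and then with IFN-gamma, and of 7.73 and 8.45 in WT and 8.62 and 8.86 in the TNFRSF1A mutant, each without and then with TNF-alpha. The TNFRSF1A mutant arrays were the highest. Its TNF-alpha difference of 0.72 in WT became 0.32 against replicate 1, and neither value passed 2-fold.

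In the TNFRSF1A mutant, TNF-alpha raised 0 of the 8 compared members and 0% of all compared genes. The 9 members had a median log2 difference of 0.05 there, from -0.30 for IL1B to 0.25 for CCL3, against -0.02 for all compared genes. CXCL2 had 0.04, with 0.50 by its other probe set, CXCL3 had -0.21 within the background range, and LTB had 0.16. The WT difference minus the mutant difference was 2.30 for CXCL2, 1.73 for LTB and at least 1.69 for IL1B, whose WT control lay in the background range. CXCL3 lay in that range on its WT control and on both mutant arrays, so it has no such value beyond its rise of at least 1.55 in WT. By the measured values 4 members, CXCL3 included, were at least 1, where 0.286% of all compared genes were. The members were listed with these responses known, so nothing is read from the share. The difference between the responses was 0.86 for CCL5, 0.73 for CXCL8 and 0.47 for CCL3. These values rest on 4 single arrays and were not tested.

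Before any cytokine, the TNFRSF1A mutant was not lower than WT replicate 2 in any compared member by 2-fold, where 0.607% of all compared genes were lower, and 0 of the 8 were 2-fold higher, where 0.373% were. CCL3 was 0.89, CCL5 0.80 and CXCL8 0.48 above WT replicate 2, all under 2-fold, and LTB had -0.13. IL1B was at least 0.43 above it, with WT replicate 2 in the background range, and CXCL3 lay in that range on both arrays. The 3 CCL4 probe sets were 1.33, 1.05 and 1.31 higher, past 2-fold, but only 0.17, 0.06 and 0.05 above WT replicate 1. CCL5 was 1.19 above WT replicate 1, the only 1 of the 8 past 2-fold there, where 0.841% of all compared genes were higher. The unstimulated mutant thus read for CCL3 and CCL5 0.17 above and 0.16 below the TNF-alpha array of WT cells, while LTB stood 2.01 below that array, CXCL2 2.13 and CXCL3 at least 1.55.

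**Figure D2:**
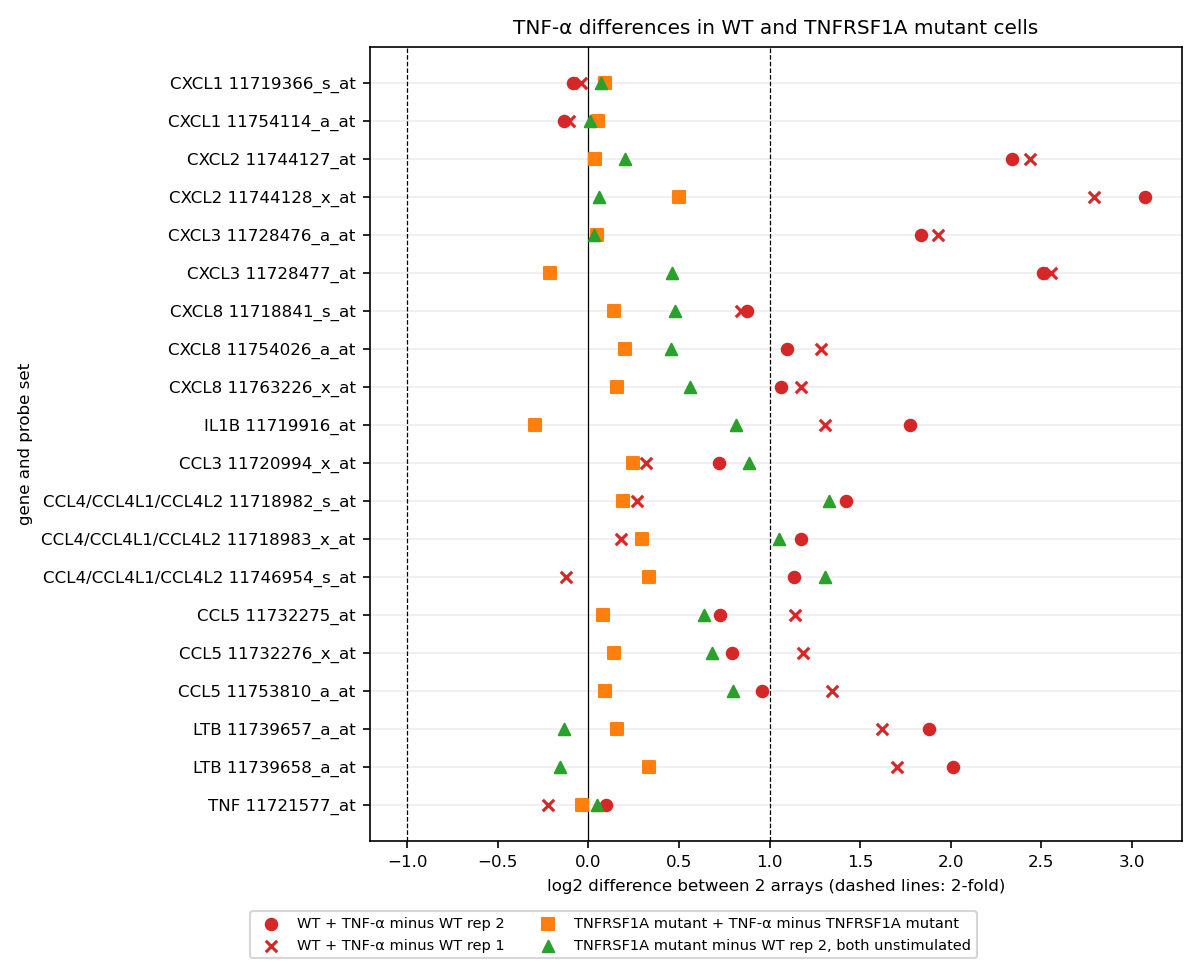
Log2 differences between pairs of arrays (x axis) for each probe set of the members (y axis), with dashed lines at 2-fold. Red circles and crosses are WT with TNF-alpha minus WT replicate 2 and replicate 1, orange squares are the TNFRSF1A mutant with minus without TNF-alpha, and green triangles are the unstimulated TNFRSF1A mutant minus WT replicate 2. The red points of CXCL2, CXCL3, IL1B and LTB lie right of 1 and their orange points between -0.30 and 0.50, while for CCL4 the red circles lie right of 1 and the red crosses between -0.12 and 0.27.

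IFN-gamma moved none of the 8 compared members past 2-fold. In WT cells 0 of the 8 compared members rose or fell, where 0.607% of all compared genes did, and the median of the 9 was -0.00135. CXCL2 had the highest value, 0.64, or 0.53 against WT replicate 2, with 0.37 and 0.65 by its other probe set. LTB had -0.01, CXCL8 0.00 and CCL5 -0.11. The 3 CCL4 probe sets had -0.22, -0.20 and -0.18, but 0.94, 0.80 and 1.07, the last past 2-fold, against WT replicate 2. In the JAK2 mutant 0 of the 8 and 0% of all compared genes changed 2-fold, and the values ran from -0.18 for TNF to 0.18 for CXCL8.

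The JAK2 mutant had lower levels of 4 members without any cytokine. Against WT replicate 1 the log2 difference was -2.45 for LTB (5.48-fold lower), -1.96 for CCL5 (3.88-fold), -1.85 for CXCL8 (3.61-fold) and -1.62 for CCL3 (3.07-fold), where 1.91% of all compared genes were 2-fold lower; the members were listed with these falls known. The 3 CCL4 probe sets had -2.30, -1.83 and -1.56. CXCL2 had -0.15, with -0.54 by its other probe set, CXCL1 had 0.06 and IL1B 0.21. CXCL3 and TNF lay in the background range in both lines, so a fall of these genes could not have been seen, and CXCL2 stood within 0.26 of the background limit in the unstimulated mutant. As RNA of whole cultures was measured, fewer expressing cells and less RNA per cell cannot be told apart.

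The pair with IFN-gamma, which shares no array with the unstimulated pair but comes from the same lines, gave like values. Between these arrays LTB differed by -2.51, CCL5 by -1.89, CCL3 by -1.73 and CXCL8 by -1.67, and 2.67% of all compared genes were lower. CXCL2 had -0.77, and -0.57 by its other probe set, both under 2-fold. The same 4 members were 2-fold lower in both pairs, as were 1.6% of all compared genes. Against WT replicate 2 the unstimulated differences were -2.19 for LTB, -2.34 for CCL5, -1.82 for CXCL8 and -1.21 for CCL3, and 3.65% of all compared genes were lower. Both JAK2 mutant arrays stood 2-fold below all 3 WT arrays without TNF-alpha in these 4 members, by 2.19 for LTB, 1.85 for CCL5, 1.63 for CXCL8 and 1.21 for CCL3 between the nearest arrays, and 1.2% of all compared genes did so. For the CCL4 probe sets these gaps were 1.12, 0.83 and 0.31, because WT replicate 2 was low. The members were listed with the lower level in the JAK2 mutant known, so nothing is read from the shares in this paragraph.

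**Figure D3:**
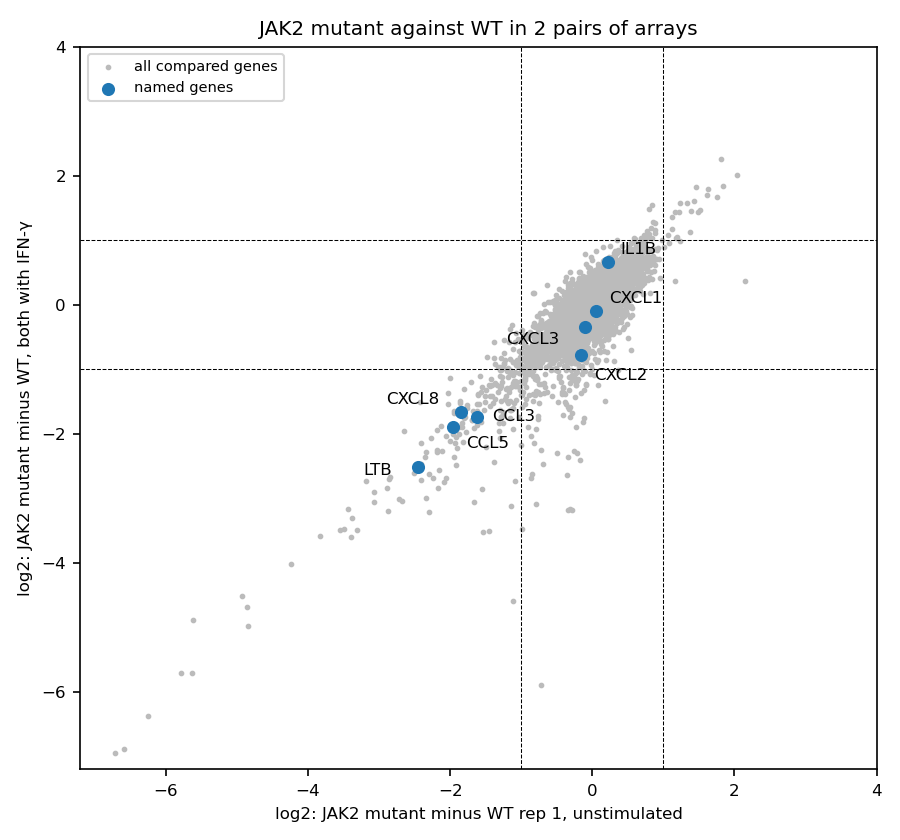
Log2 difference of the JAK2 mutant from WT without cytokine (x axis, against WT replicate 1) and with IFN-gamma in both lines (y axis) for the 11529 compared genes in grey and the 8 compared members in blue; dashed lines mark 2-fold. LTB, CCL5, CXCL8 and CCL3 lie below -1 on both axes, from LTB at -2.45 and -2.51 to CCL3 at -1.62 and -1.73, and CXCL1, CXCL2, CXCL3 and IL1B lie between the dashed lines.

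Other quantities also differed in the JAK2 mutant, and some did not. The ratio of 3′ to 5′ actin probe sets, which rises as RNA degrades, was 5.74 and 6.47 on its arrays. It was 3.27 to 4.81 on the WT arrays and 4.51 and 5.53 in the TNFRSF1A mutant. The GAPDH ratio was 1.27 and 1.25 in the JAK2 mutant, against 1.09 to 1.21 in WT. Of the myeloid progenitor markers, MPO and PRTN3 stood at 7.29 and 6.81 in the unstimulated mutant against 6.51 and 5.35 in WT replicate 1, and KIT and CD34 at 7.25 and 7.41 against 7.95 and 8.15; the list's summed intensity of 681 to 712 lay within the 599 to 737 of WT. Summed monocyte markers reached 880 to 923 in the JAK2 mutant and 577 to 753 in WT, but also 846 to 882 in the TNFRSF1A mutant, with CD14 and FCN1 in the background range. Summed T cell markers were 587 to 601 against 767 to 1168 in WT, and 556 to 558 in the TNFRSF1A mutant. Summed NK cell markers were 488 to 511 against 614 to 644 in WT, and 586 to 611 in the TNFRSF1A mutant. Those of mast cells and basophils were 82.3 to 84.5 against 107 to 166 in WT, and 107 to 116 in the TNFRSF1A mutant, with CPA3 and FCER1A in the background range. The 8 neutrophil markers summed to 247 to 293 against an overlapping 285 to 296 in WT. The part of these differences in the lower members was not tested.

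Lists of related genes place the members in the series. Of 38 other chemokine ligand genes, 33 were measured and 10 compared, and 23 lay in the background range on every array, among them CCL2, CCL20, CXCL5 and CXCL6. Of the 10, CXCL10, which attracts T cells through CXCR3, rose with TNF-alpha in WT from 5.53 to 11.98. CXCL11 differed by 1.66 on the same arrays, but both lay in the background range, and against WT replicate 1 only 1 of the 10, CXCL10, passed 2-fold. With IFN-gamma in WT, CXCL10 rose by at least 5.30 and CXCL11, which shares its receptor, by at least 2.30. In the unstimulated JAK2 mutant 0 of the 10 fell, where 1.91% of all compared genes were 2-fold lower. All of the 10 but CCL22 stood at 6.84 or lower in WT replicate 1, against a background limit of 5.86 in the mutant. A 2-fold fall above background could not have been seen in them, so nothing is read from the 0. Of 25 other inflammatory cytokine genes, 24 were measured and 13 compared. Of these, 0 rose with TNF-alpha in WT, where 0.312% of all compared genes did. LIF went from 7.10 to 7.73 and IL32 from 7.56 to 8.36 on these arrays. IL6 and IL1A lay in the background range on every array. With IFN-gamma, IL12A, a subunit gene of interleukin-12, had 1.101 in WT, of which at least 0.86 is above background. In the unstimulated JAK2 mutant IL18, a cytokine processed like IL1B, had -1.24. In the unstimulated TNFRSF1A mutant LIF had -1.20 against WT replicate 2, or at least -1.09 in size by the bound.

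Of 13 receptor genes of the members, 11 were measured. CXCR1, CXCR2, CCR1, IL1R1 and IL1R2 lay in the background range on all arrays, and of the 6 compared only TNFRSF1A differed 2-fold in a designed comparison, in its own mutant. The lymphotoxin receptor gene LTBR ran from 9.18 to 9.53. Of 15 genes listed for processing of the cytokines or decay of their messages, 1 rose with TNF-alpha in WT, NFKBIZ, by 1.25, where 0.312% of all compared genes rose. NFKBIZ is the gene of a nuclear IkappaB protein and is itself neither a processing nor a decay gene. With IFN-gamma 1 of the 15 rose, CASP1, which encodes the protease that matures IL1B, by 1.66, where 0.607% of all compared genes rose. NFKBIZ was also 1.13 higher in WT replicate 2 than in replicate 1, and had -1.25 in the unstimulated TNFRSF1A mutant against replicate 2. ZFP36, whose product tristetraprolin destabilises AU-rich messages such as those of TNF, had 0.26 with TNF-alpha in WT against replicate 2 and 1.23 against replicate 1.

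Of 10 genes of NF-kappaB subunits and inhibitors, 6 rose with TNF-alpha in WT, where 0.312% of all compared genes did, and the median was 1.21. The list was chosen with earlier results of these data known, so nothing is read from its share or median. In the TNFRSF1A mutant 0 of the 10 and 0% of all compared genes rose, and the median was 0.15. In the unstimulated JAK2 mutant 1 of the 10 fell, TNFAIP3, with -2.35, where 1.91% of all compared genes fell, and the median was -0.28. TNFAIP3 therefore shared with LTB a rise with TNF-alpha in WT, of 2.36, and a fall in the JAK2 mutant.

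Patterns over the 8 arrays were set against those of 1466 other compared genes that spanned at least 2-fold. For each member the 3 genes with the highest Pearson r are named as a description; the arrays share lines and treatments. CXCL2 was most like ICAM1 (r = 0.97), NFKB1 (0.97) and STX11 (0.96), and CXCL3 most like JUNB (0.98), NFKBIA (0.97) and NFKB2 (0.97). CXCL3 was above background only on the TNF-alpha array of WT cells, and CXCL2 had its single high value there. The r values of CXCL2 and CXCL3 therefore rest largely on that 1 array. IL1B had lower values, with IER5 at 0.92, FRMD4B at 0.90 and DUSP2 at 0.87. LTB was most like PPIF (0.98), ZBTB1 (0.98) and PHACTR1 (0.98). CXCL8 was most like PTGER4 (0.996), CDC42EP3 (0.99) and CH25H (0.98), CCL5 like MYCN (0.99), MEX3A (0.99) and LRRC32 (0.99), and CCL3 like TRIB3 (0.98), ARID5A (0.98) and CAMSAP2 (0.98). No gene was named for more than 1 member.

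The members lie in 3 chromosomal clusters apart from IL1B, each with neighbours that differed in whether they rose above background. On chromosome 4, CXCL8 and CXCL2 bound a row of 9 protein-coding genes, of which CXCL6, PPBP and CXCL5 lay in the background range on all arrays and CXCL1 and PF4V1 stayed above it without a 2-fold difference in any designed comparison. On chromosome 6, TNF lies between LTA and LTB. LTA ran from 6.83 to 7.32 over the arrays, TNF stayed in the background range, and LTB spanned 9.42 to 13.56. On chromosome 17, CCL5 and CCL4 bound a row of 10 protein-coding genes, of which 8 had a probe set of their own; 5 of these, LYZL6, CCL16, CCL15, CCL23 and CCL18, lay in the background range on every array. RDM1, the gene next to CCL5, stood at 8.34 in WT replicate 1 and at 8.30 in the unstimulated JAK2 mutant, where CCL5 was 3.88-fold lower, but at 9.80 in WT replicate 2.

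**Figure D4:**
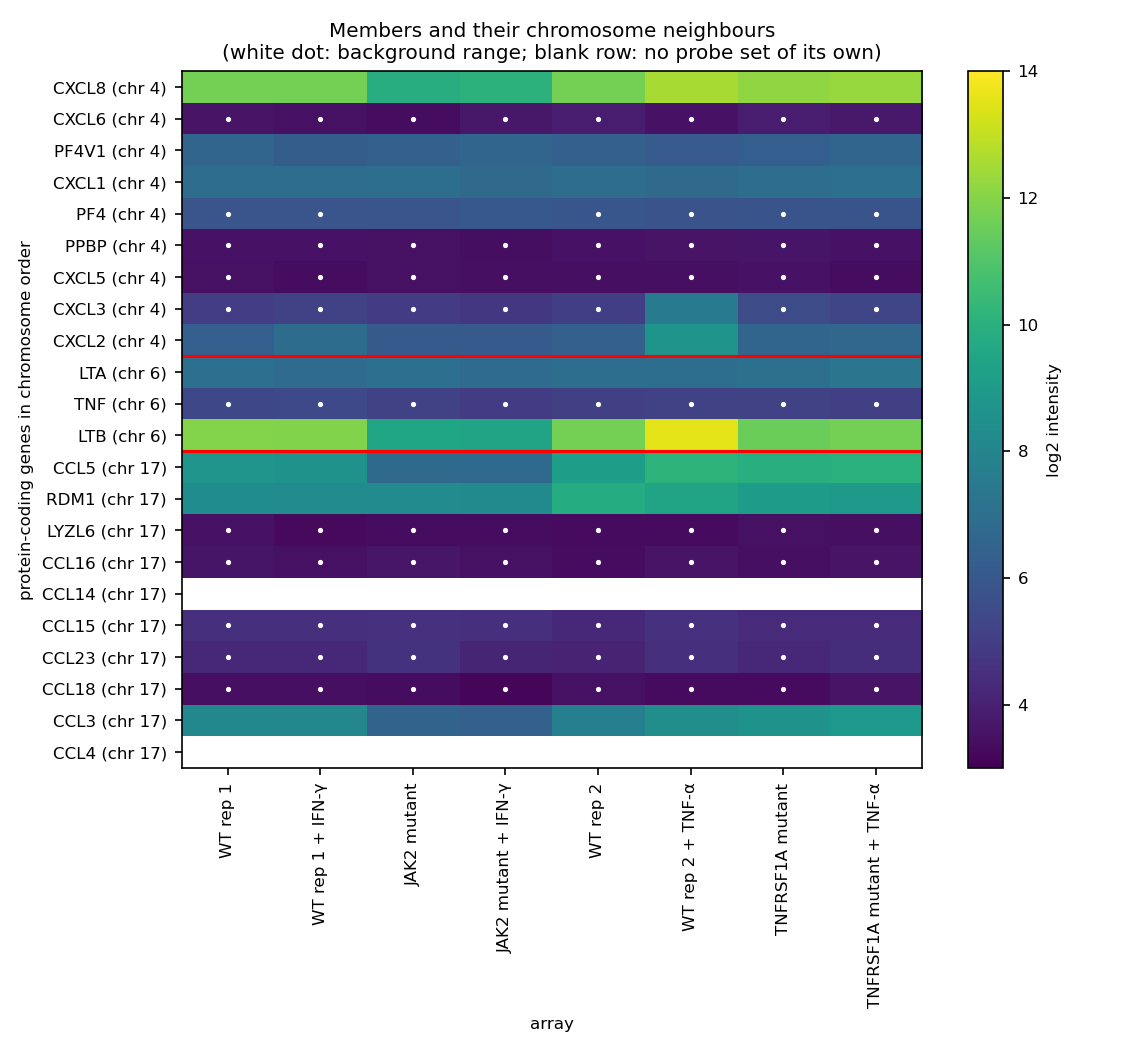
Log2 intensity (colour) of members and the protein-coding genes between them, in chromosome order (y axis), on the 8 arrays (x axis); red lines separate the clusters of chromosomes 4, 6 and 17, white dots mark the background range, and blank rows are genes without a probe set of their own. LTB spans 9.42 to 13.56, while its neighbour TNF lies in the background range on every array and LTA between 6.83 and 7.32.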

How the data were processed

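Each of 8 RNA samples was hybridised to 1 Affymetrix PrimeView array; groups and controls came from the labels, which do not say whether the 2 unstimulated WT samples were separate cultures. The deposited values are intensity per probe set, which the authors made by RMA; the submitters' processing notes name RMA and Affymetrix Expression Console 1.1. Their linear scale was inferred from the values. RMA makes the arrays' distributions equal, so a shift of most genes 1 way would not be seen.

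Intensities were taken to log2 without a pseudocount. Of 49395 probe sets, 44994 named 1 gene, 1832 several and 2569 none in the platform annotation, with symbols updated through the RefSeq table of GRCh38.p14. A gene took its single-gene probe set of highest mean (18132 genes), and genes reaching a log2 value of 6 were compared. Differences of 2 arrays were counted at 2-fold. Where a value lay in the background range, it was raised to that limit and a lower bound was computed. The genes named are the 10 members with every probe set, members of the fixed lists past 2-fold, and the 3 genes most like each member that reached a log2 value of 7 and spanned 2-fold; values of other list genes are given where they show the level of a list, and these were chosen after their values were seen. The members and lists were chosen with earlier results of these data known.

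Alternatives were thresholds of 1.5-fold and 3-fold, no level filter or 8, loess (span 0.3) and quantile normalization, the mean of a gene's probe sets, omission of _x_at and _s_at probe sets, the background limit, the other or both WT arrays as control, and a limma 3.58.1 fit (R 4.3.3) with Benjamini-Hochberg adjustment at 0.05. A rule of 2-fold against both WT arrays and the pair with IFN-gamma were added after the data were seen. Counting and limma were tested on simulated data. Tools were python 3.11.15, numpy 2.4.6 and pandas 2.3.3.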

Additional observations from a re-analysis of the deposited data

Results flagged for a closer look

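TNF-alpha differences of opposite sign in WT and in the TNFRSF1A mutant appeared in 2 members that rose in WT. CXCL3 had 2.51 in WT and -0.21 in the mutant, where both arrays lay in the background range. IL1B had 1.78 in WT and -0.30 in the mutant, where both arrays were above it. Both mutant values are smaller than the 0.38 spread of the WT pair, whose arrays belong to 2 experiments. They are larger in size than 0.12, the SD over genes of the TNF-alpha difference in the mutant. The difference between the lines was not tested.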

How the results depend on the processing

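Counts of members were recomputed under every alternative. The count raised by TNF-alpha in WT was 7 of 8 at 1.5-fold (1.09% of all compared genes) and 2 of 5 with a level filter of 8 (0.411%), which leaves out CXCL1, CXCL3 and IL1B. The same filter left 2 of the 4 members whose WT response exceeded the mutant's by 1 (0.398%). At 1.5-fold 1 member, CXCL2, was raised by IFN-gamma in WT (1.38%). Omission of _x_at and _s_at probe sets left CXCL8 only its _a_at probe set, which rose past 2-fold with TNF-alpha in WT. CXCL8 thus joined the members raised by TNF-alpha under that alternative, while its brightest probe set stayed under 2-fold. The same omission left CCL3 without a value, as its only probe set is of the _x_at type. CCL3 therefore could not count there among the members lower in the JAK2 mutant. The limma fit, with 1 residual degree of freedom, called 0 members raised by TNF-alpha in WT and 0 lower in the JAK2 mutant, with 6 and 4 at an unadjusted p under 0.05 and lowest adjusted p of 0.292 and 0.0835; it called 1 and 19 of all compared genes. Without WT replicate 2 the count for TNF-alpha was 5, CCL5 joining, as was the count for the response beyond the mutant's, and without WT replicate 1 the JAK2 count was 4; both were 4 with 2-fold required against each WT array, and the JAK2 count was 4 in the pair with IFN-gamma. No single-gene difference past 2-fold changed sign, but the third CCL4 probe set went from 1.13 with TNF-alpha in WT to -0.12 against WT replicate 1. Of 370 values of single members under the alternatives, 16 moved by more than the spread and 15 of these did so with the other WT array as control, in CCL3, CCL5 and IL1B. No paired analysis was possible because the groups compared share fewer than 2 replicate numbers. Levels in the background range limit CXCL3, IL1B, TNF and the dimmer CXCL1 probe set, and no loss can be read from them.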
